A study of Mus musculus with 9 samples.

Results

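The 10 genes described here mark the cells that line blood and lymphatic vessels: Pecam1, Cdh5, Kdr, Plvap, Vwf and Sele for blood vessels, and Prox1, Flt4, Lyve1 and Ccl21a for lymphatic vessels. They were taken by gene name from a table of 55468 genes, in which they fill 11 rows because Ccl21a is listed in 2 places. The table gives their level in bulk RNA of the intestinal tract of mice under 9 conditions, with 1 library per condition. The sources used here do not give the strain, sex, age, gut segment or hour of collection, or say whether a library held 1 animal or a pool.

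The study asked how diets lacking certain amino acids act on the gut in a mouse model of colitis. In 8 of the 9 conditions mice drank dextran sulfate sodium (DSS), an irritant polysaccharide that damages the lining of the gut, from day 18 onward. Tissue taken at day 28 followed normal food (R), food without methionine (1K), food without tryptophan and niacin (2K), or food without all 3 nutrients (3K). Tissue taken at day 33 followed normal food throughout (RR), or normal food after day 28 in mice that had eaten the matching deficient food until then (1KR, 2KR and 3KR). The library without DSS (C) came from mice on normal feed at day 34, so that it differs from the others in day as well as in DSS. No condition has a replicate library, so a value that compares 2 libraries describes those libraries only.

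Endothelial cells form the inner wall of all vessels and hold together through adhesion molecules at their junctions. They grow in response to vascular endothelial growth factors (VEGF), and in inflamed tissue the cells of small venules display selectins and other adhesion molecules that capture leukocytes from the blood. Lymphatic endothelial cells take up fluid, lipid and immune cells from the tissue, and they keep their identity through the transcription factor Prox1 and depend on the receptor that Flt4 encodes. In the gut, blood capillaries and a central lymphatic vessel lie in every villus.

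Levels are in FPKM, a count of fragments divided by transcript length and by the fragments mapped in that library. Differences are in log2(FPKM + 0.5), which understates the change of low genes, and a gene was counted as higher or lower at a difference of at least 2-fold if it had at least 1 FPKM in either library. The depth, estimated from the FPKM value of a single fragment, was between 14.4 M fragments (3KR) and 31.6 M (2KR). At that depth, the members other than Sele and Ccl21a rested on an estimated 145 to 3355 fragments per library. These fragment numbers are estimates that use annotated lengths, and no counting interval was derived from them.

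The 2K and 3K libraries, in which most members below were highest, held transcripts of organs beside the gut. The summed level of 10 pancreatic acinar genes was 38340 FPKM in 2K and 46912 FPKM in 3K, and at most 16.8 FPKM in the other 7 libraries. The summed level of 12 hepatocyte genes was 34699 FPKM in 2K against 97.8 to 354.9 FPKM in the other 8, and that of 9 stomach gene rows was 17854 FPKM in 2K against 57.8 FPKM in 3K and at most 2.29 FPKM elsewhere. The 6 epithelial markers summed to 1343 FPKM in 2K, 1843 FPKM in 3K and 2358 FPKM in 3KR, against 3182 to 4001 FPKM in the other 6, so epithelial RNA was present in all. How much of it came from gut and how much from another organ was not tested. Pancreas, liver and stomach have vessels of their own, and the part of their RNA in the endothelial values was not tested.

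Every member but Sele had a mean of at least 1 FPKM in at least 1 of its rows, so endothelial RNA was measurable in all 9 libraries. Of the 9 members with such a mean, 6 were highest in 3K (Pecam1, Kdr, Plvap, Vwf, Flt4 and Lyve1), 2 were highest in 2K (Prox1 and Ccl21a) and 1 was highest in 3KR (Cdh5). The methionine-deficient library 1K was the lowest for 4 of the 9 (Pecam1, Kdr, Plvap and Vwf). How many of all genes were highest or lowest in each library was not counted. In bulk tissue, fewer endothelial cells and less RNA per endothelial cell cannot be told apart.

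**Figure D1:**
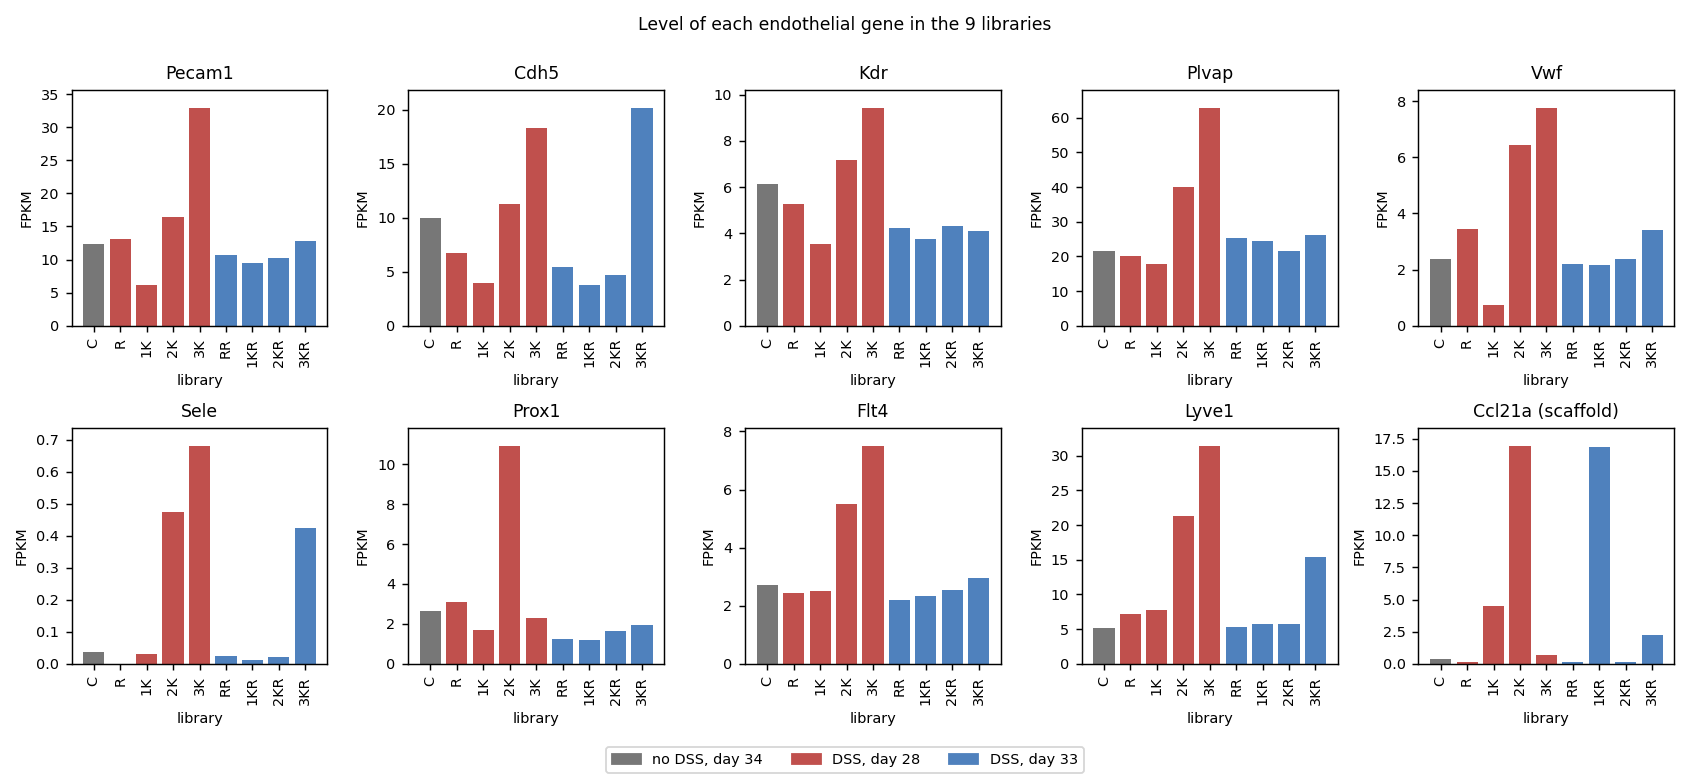
Level of each gene in each of the 9 libraries, in FPKM on a linear axis from 0 that differs between panels; each bar is 1 library, grey without DSS, red at day 28 and blue at day 33. Pecam1, Kdr, Plvap, Vwf, Flt4 and Lyve1 were highest in 3K, Prox1 in 2K, and Cdh5 in 3KR at 20.2 FPKM.

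Among the genes of blood vessels, Pecam1 encodes CD31, an adhesion molecule at the junctions between endothelial cells (ENSMUSG00000020717, GRCm38 chromosome 11, 106654217 to 106750628, minus strand). Its level was 12.4 FPKM in C, 13.2 in R, 6.15 in 1K, 16.4 in 2K, 33.0 in 3K, 10.7 in RR, 9.42 in 1KR, 10.2 in 2KR and 12.8 in 3KR. The 3K library stood above all others and 1K below all others, a span of 5.36-fold, while the other 7 lay between 9.42 and 16.4 FPKM.

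Cdh5 encodes VE-cadherin, the cadherin of endothelial junctions (ENSMUSG00000031871, chromosome 8, 104101625 to 104144511, plus strand). It was at 9.96 FPKM in C, 6.70 in R, 3.93 in 1K, 11.2 in 2K, 18.3 in 3K, 5.48 in RR, 3.76 in 1KR, 4.71 in 2KR and 20.2 in 3KR. Unlike Pecam1, it was slightly higher in 3KR than in 3K, and the other day 33 libraries lay at or below 5.48 FPKM. An antisense gene that overlaps its start, Gm29682, was listed at 0 in all 9 libraries.

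Kdr encodes VEGF receptor 2, the main receptor for blood vessel growth (ENSMUSG00000062960, chromosome 5, 75932827 to 75978458, minus strand). Its level was 6.14 FPKM in C, 5.26 in R, 3.54 in 1K, 7.18 in 2K, 9.44 in 3K, 4.22 in RR, 3.74 in 1KR, 4.31 in 2KR and 4.12 in 3KR. The order was the same as for Pecam1 at its ends, with 3K and 2K highest and 1K lowest, but the span was only 2.67-fold.

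Plvap encodes the protein of the diaphragms that close the pores of fenestrated capillaries (ENSMUSG00000034845, chromosome 8, 71497765 to 71511752, minus strand). It was the most abundant member per transcript length in each of the 9 libraries, at 21.5 FPKM in C, 20.03 in R, 17.9 in 1K, 40.1 in 2K, 62.9 in 3K, 25.3 in RR, 24.5 in 1KR, 21.6 in 2KR and 26.3 in 3KR. All libraries but 2K and 3K lay within 17.9 to 26.3 FPKM. The end of Plvap overlaps the end of Gtpbp3, at 3.53 to 7.04 FPKM, on the opposite strand.

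Vwf encodes von Willebrand factor, the clotting protein that endothelial cells store and release (ENSMUSG00000001930, chromosome 6, 125546774 to 125686679, plus strand). It was at 2.37 FPKM in C, 3.44 in R, 0.735 in 1K, 6.43 in 2K, 7.77 in 3K, 2.21 in RR, 2.17 in 1KR, 2.39 in 2KR and 3.42 in 3KR. The 1K level stood well apart at the low end, and 2K and 3K stood apart at the high end. Vwf is also made by megakaryocytes, whose markers Gp6, Gp9, Tubb1 and Ppbp were at most 0.400 FPKM in every library. Other genes on the megakaryocyte and platelet list were higher. Pf4, which macrophages can also express, was at 20.1 FPKM in 3K and 20.04 in 3KR against 2.66 to 8.57 in the other 7, and Itgb3, an integrin subunit, had its 2 highest levels in 3K (8.19) and 2K (6.68), as Vwf did. Itga2b was at most 6.42 FPKM (2K) and Gp1bb at most 27.1 (1K). The part of megakaryocytes and platelets in the Vwf values was not tested.

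Sele encodes E-selectin, which endothelium displays after cytokine stimulation to slow passing leukocytes (ENSMUSG00000026582, chromosome 1, 164048234 to 164057677, plus strand). It was at 0.038 FPKM in C, 0 in R, 0.030 in 1K, 0.475 in 2K, 0.682 in 3K, 0.024 in RR, 0.011 in 1KR, 0.021 in 2KR and 0.424 in 3KR. These values corresponded to an estimated 32.5 fragments in 2K, 53.3 in 3K and 17.8 in 3KR, and to at most 2.96 in each of the other 6 libraries. Because Sele never reached 1 FPKM, it entered no count below, and no fold against R is given.

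The next 3 stretches of promoter are shown because Sele, Kdr and Flt4 all had their highest level in 3K and a RefSeq start in the table used here. Each is the 250 bases before the RefSeq start, on GRCm38.p6, 5′ to 3′ on the strand of the gene. The GENCODE span of Flt4 starts at 49609263, so its stretch lies inside that span. The stretch of Kdr overlaps its GENCODE span only at its last bases. Capitals mark GGAA, the core that ETS-family factors of endothelial cells bind, on either strand (TTCC on the printed one); for Sele they also mark GGGNNNNNCC, the general form of an NF-kB site, on either strand.
Sele promoter, chr1:164047984-164048233, plus strand: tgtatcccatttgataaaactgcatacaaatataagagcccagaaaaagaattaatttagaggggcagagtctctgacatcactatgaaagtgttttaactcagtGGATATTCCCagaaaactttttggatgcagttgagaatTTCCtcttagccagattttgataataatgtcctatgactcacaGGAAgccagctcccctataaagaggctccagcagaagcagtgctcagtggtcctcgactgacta
Kdr promoter, chr5:75978456-75978705, minus strand: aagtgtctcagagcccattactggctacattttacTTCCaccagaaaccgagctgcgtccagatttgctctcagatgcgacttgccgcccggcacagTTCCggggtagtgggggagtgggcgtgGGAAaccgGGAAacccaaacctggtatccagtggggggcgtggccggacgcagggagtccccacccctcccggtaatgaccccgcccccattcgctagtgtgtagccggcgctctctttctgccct
Flt4 promoter, chr11:49609429-49609678, plus strand: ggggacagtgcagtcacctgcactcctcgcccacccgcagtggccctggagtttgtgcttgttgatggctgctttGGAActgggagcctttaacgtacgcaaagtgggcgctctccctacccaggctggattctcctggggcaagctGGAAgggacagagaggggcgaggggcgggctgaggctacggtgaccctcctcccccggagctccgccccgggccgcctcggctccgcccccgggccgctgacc
Sele held 3 GGAA matches, 1 of which overlaps its GGGNNNNNCC match, Kdr held 4 and Flt4 held 2. GGAA occurred in 93.4% of the 32851 RefSeq promoters of that length, with a median of 3 matches, so the core alone does not set these promoters apart. GGGNNNNNCC matched 1 time in Sele, 3 times in Kdr and 1 time in Flt4 and occurred in 45.8% of all promoters. AGGAAG, a longer form that contains the core, occurred 1 time in Sele, not in Kdr or Flt4, and in 29.5% of all promoters.

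Among the lymphatic genes, Prox1 encodes the transcription factor that sets lymphatic identity and that hepatocytes and some gut and pancreas cells also express (ENSMUSG00000010175, chromosome 1, 190118035 to 190170714, minus strand). It was at 2.65 FPKM in C, 3.12 in R, 1.67 in 1K, 10.9 in 2K, 2.28 in 3K, 1.25 in RR, 1.19 in 1KR, 1.66 in 2KR and 1.96 in 3KR. Only 2K stood apart, and 3K, which was highest for the receptor Flt4 and for Lyve1, lay below R and C. The summed hepatocyte markers were also highest in 2K, at 34699 FPKM against 230.5 FPKM in 3K, and their part in the Prox1 value was not tested. The overlapping antisense genes Prox1os and Gm28172 reached 1.19 and 1.16 FPKM in 2K and at most 0.479 FPKM in any other library, and the sources used here do not give the strand setting of the authors' counting.

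Flt4 encodes VEGF receptor 3, the receptor for lymphatic growth (ENSMUSG00000020357, chromosome 11, 49609263 to 49652739, plus strand). It was at 2.72 FPKM in C, 2.43 in R, 2.50 in 1K, 5.49 in 2K, 7.51 in 3K, 2.195 in RR, 2.33 in 1KR, 2.56 in 2KR and 2.94 in 3KR. Outside 2K and 3K the 7 libraries lay within 2.195 to 2.94 FPKM, a span of 1.34-fold and the narrowest of the 9 members that reached a mean of 1 FPKM.

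Lyve1 encodes a hyaluronan receptor of lymphatic capillaries that some tissue macrophages and liver sinusoids also carry (ENSMUSG00000030787, chromosome 7, 110850607 to 110863239, minus strand). It was at 5.09 FPKM in C, 7.11 in R, 7.73 in 1K, 21.2 in 2K, 31.5 in 3K, 5.36 in RR, 5.79 in 1KR, 5.78 in 2KR and 15.4 in 3KR. The 2K, 3K and 3KR libraries stood apart from the other 6, all of which lay at or below 7.73 FPKM. Lyve1 was not the lowest in 1K, in contrast to 4 of the blood vessel genes.

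Ccl21a encodes a chemokine with which lymphatic vessels and lymph node stroma attract T cells and dendritic cells carrying the receptor CCR7. The row for chromosome 4 (ENSMUSG00000094686, 42772860 to 42773993, minus strand) was listed at 0 in all 9 libraries. The row for a scaffold outside the assembled chromosomes (ENSMUSG00000095320), with a coding model of 402 bases, was at 0.345 FPKM in C, 0.158 in R, 4.51 in 1K, 17.0 in 2K, 0.684 in 3K, 0.160 in RR, 16.9 in 1KR, 0.146 in 2KR and 2.24 in 3KR. The estimated fragments were 161 in 2K, 207 in 1KR, 40.6 in 1K and 12.9 in 3KR, against 1.85 to 7.38 in the other 5. The row was thus high in 2K but not in 3K, and high in 1KR but not in 2KR, and it was the only member with 1KR among its 2 highest libraries.

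Ccl21a has near-identical copies in the mouse genome, and the sources used here do not say how the authors' counting divided shared fragments among them, so both rows are uncertain. The coding sequence of Ccl21a on chromosome 4 and that of Ccl21b, also on chromosome 4, were identical at 400 of 402 bases, as was the model Gm10591. The 2 windows below, of 40 bases each from the GENCODE M21 transcripts, show both positions at which Ccl21a and Ccl21b differ, 84 and 194 from the first base of the start codon, with the differing base in capitals.
Ccl21a around position 84: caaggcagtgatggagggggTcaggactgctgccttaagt
Ccl21b around position 84: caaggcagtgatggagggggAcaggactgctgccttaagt
Ccl21a around position 194: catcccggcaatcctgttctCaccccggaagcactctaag
Ccl21b around position 194: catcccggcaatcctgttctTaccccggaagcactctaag
Of the 3 Ccl21b rows and the Ccl21c row, 1 Ccl21b row reached at most 0.257 FPKM and the others were listed at 0 in all libraries. The sequence of the scaffold copy was not used here.

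Some of the high values rest on 2K and 3K alone, and without those libraries the order differs. Among the other 7 libraries, R was highest for Pecam1 (13.2 FPKM), Vwf (3.44) and Prox1 (3.12), C for Kdr (6.14), 1KR for Ccl21a (16.9), and 3KR for Cdh5 (20.2), Plvap (26.3), Flt4 (2.94) and Lyve1 (15.4). The span from lowest to highest was 3.51-fold over all 9 and 1.47-fold without them for Plvap, 6.18-fold and 3.03-fold for Lyve1, 9.16-fold and 2.61-fold for Prox1, and 5.38-fold in both cases for Cdh5. With or without 2K and 3K, 1K was the lowest for Pecam1, Kdr, Plvap and Vwf, though for Plvap only at 17.9 FPKM against 20.03 in R.

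The effect of DSS on the normal diet was compared as R and RR against C. None (0) of the 8 members with at least 1 FPKM in R or C was 2-fold higher or lower in R, where 4.43% of all genes were higher and 3.22% lower. In RR against C it was again 0 of 8, with 6.71% of all genes higher and 5.81% lower. The differences for R ran from -0.54 (Cdh5) to 0.46 (Vwf), and those for RR from -0.85 (Prox1) to 0.23 (Plvap). Both comparisons share the C library.

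**Figure D2:**
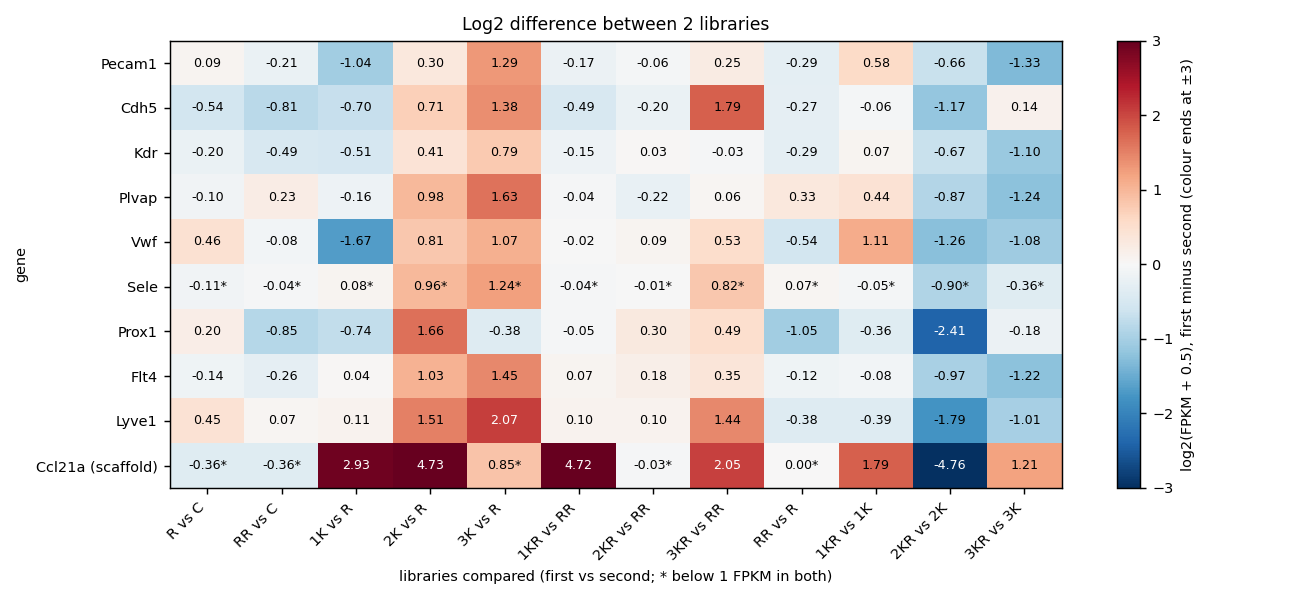
Log2 difference of each gene (rows) in each of the 12 comparisons of 2 libraries (columns), on the log2(FPKM + 0.5) scale, first library minus second, with red for higher in the first; asterisks mark values below 1 FPKM in both libraries. The 3K against R column is positive for all genes but Prox1 (-0.38), and the 1K against R column is lowest for Vwf (-1.67).

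Under methionine deficiency at day 28, 2 of 9 members were at least 2-fold lower in 1K than in R and 1 was higher, beside 8.63% of all genes lower and 7.17% higher. Those lower were Vwf (-1.67) and Pecam1 (-1.04, or -0.99 with a pseudocount of 1), and the higher one was Ccl21a (2.93). Vwf was at 0.735 FPKM in 1K and entered this count only through its R level of 3.44 FPKM. Markers common to leukocytes (median -1.03) and of macrophages (median -1.06) were also lower in 1K than in R. The part of these cells in the Pecam1 value was not tested. Prox1 (-0.74), Cdh5 (-0.70) and Kdr (-0.51) were lower by less than 2-fold, while Plvap (-0.16), Flt4 (0.04) and Lyve1 (0.11) lay near 0. After median-of-ratios scaling, the median over all genes moved from 0.03 to -0.15, the split of 1302 higher against 1567 lower genes became 940 against 2081, and Lyve1 moved to -0.08.

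Under tryptophan and niacin deficiency at day 28, 4 of 9 members were at least 2-fold higher in 2K than in R and 0 lower, beside 14.7% of all genes higher and 14.1% lower. All 4 were the lymphatic genes: Ccl21a (4.73), Prox1 (1.66), Lyve1 (1.51) and Flt4 (1.03). Flt4 was close to the limit and at 1.00 after median-of-ratios scaling, just under it. Ccl21a was at 0.158 FPKM in R and entered this count only through its 2K level of 17.0 FPKM. The blood vessel genes Plvap (0.98), Vwf (0.81), Cdh5 (0.71), Kdr (0.41) and Pecam1 (0.30) were under the limit, Plvap only through the pseudocount, since its FPKM in 2K was 2.00 times that in R.

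Under deficiency of all 3 nutrients at day 28, 6 of the 8 members with at least 1 FPKM in 3K or R were at least 2-fold higher in 3K and 0 lower, beside 11.6% of all genes higher and 13.4% lower. They were Lyve1 (2.07), Plvap (1.63), Flt4 (1.45), Cdh5 (1.38), Pecam1 (1.29) and Vwf (1.07, or 0.98 with a pseudocount of 1). Kdr was at 0.79 and Prox1 at -0.38. The median over these 8 was 1.34, against 0.003 over all genes. A member below 1 FPKM in R could enter such a count only through a high value in the deficient library. Ccl21a entered in this way in 1K and 2K against R. In the later comparisons it entered 1KR and 3KR against RR, 2KR against 2K and 3KR against 3K only through its higher library.

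At day 33, after the return to the normal diet, the members in 1KR and 2KR lay close to RR, and 3KR did not. In 1KR against RR, 1 of 9 members was higher (Ccl21a, 4.72) and 0 lower, beside 2.47% and 3.51% of all genes. In 2KR against RR it was 0 of 8 in either direction, beside 2.67% and 3.67%. In 3KR against RR, 3 of 9 were higher and 0 lower, beside 11.4% and 9.73%: Ccl21a (2.05), Cdh5 (1.79) and Lyve1 (1.44). Pecam1 (0.25), Plvap (0.06) and Kdr (-0.03) in 3KR were near their RR level, so of the blood vessel members only Cdh5 was past 2-fold in that library. Of 25 measured genes on the pan-endothelial list described below, 2 were also higher, Ecscr (1.39) and S1pr1 (1.17).

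The later day was also compared with the earlier one on the same diet history. In RR against R, Prox1 was lower (-1.05, or -0.87 with a pseudocount of 1) and the other 7 of 8 members were less than 2-fold apart, beside 5.42% of all genes higher and 5.29% lower. In 1KR against 1K, Ccl21a (1.79) and Vwf (1.11, or 0.87 with a pseudocount of 1) were higher and 0 of 9 lower, beside 6.57% and 7.79%. Vwf was at 0.735 FPKM in 1K and entered only through its 1KR level of 2.17 FPKM. In 2KR against 2K, 5 of 9 were lower and 0 higher, beside 19.0% and 13.5%: Ccl21a (-4.76), Prox1 (-2.41), Lyve1 (-1.79), Vwf (-1.26) and Cdh5 (-1.17). In 3KR against 3K, 6 of 9 were lower and 1 higher, beside 11.7% and 13.3%. Pecam1 (-1.33), Plvap (-1.24), Flt4 (-1.22), Kdr (-1.10), Vwf (-1.08) and Lyve1 (-1.01) were lower and Ccl21a (1.21) was higher, while Cdh5 was at 0.14. Of these, Lyve1 (-0.98), Vwf (-0.99) and Ccl21a (0.94) were under 2-fold with a pseudocount of 1, and Lyve1 (-0.98) also after median-of-ratios scaling. The 2KR and 3KR libraries were thus lower than 2K and 3K in most members, in the libraries that also differed in pancreatic transcripts.

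A test was possible only across libraries that share a diet factor. A linear model with both diet factors at each day was fitted with limma to 17577 genes in the 8 DSS libraries, with 2 residual degrees of freedom that come from assuming no interaction between the diets. For tryptophan and niacin deficiency at day 28, which sets 2K and 3K against R and 1K, 33 genes (0.188%) passed an adjusted p of 0.05 (Benjamini-Hochberg over all genes), 30 higher and 3 lower, and 0 of the 9 members fitted did. Of the 30, 10 were the pancreatic acinar genes that were high in 2K and 3K, and leaving out any 1 of the 8 libraries left 0 genes called. All 9 coefficients were positive in this fit, though that of Ccl21a (1.32, SE 1.76) ranged from -2.08 to 4.73 under the alternatives, and 5 members had an unadjusted limma p under 0.05. The median coefficient over all 17577 genes was -0.02. How many of all genes had an unadjusted p under 0.05 was not counted for any term, so the member counts at that limit have no background. Plvap had a coefficient of 1.38 (SE 0.29) with a limma adjusted p of 0.155, Lyve1 1.74 (SE 0.38, adjusted p 0.157), Flt4 1.23 (SE 0.27, adjusted p 0.159), Vwf 1.78 (SE 0.54, adjusted p 0.209) and Kdr 0.86 (SE 0.31, adjusted p 0.254). In limma fits under the alternatives the coefficient ranged from 0.66 to 1.78 for Plvap, from 1.23 to 1.96 for Lyve1 and from 0.30 to 2.33 for Pecam1, and no member was called.

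For methionine deficiency at day 28 the limma fit called 0 genes (0.00%), with 1 member at an unadjusted p under 0.05, Prox1 (-1.39, SE 0.43, adjusted p 1). For methionine deficiency and for tryptophan and niacin deficiency at day 33 it called 0 genes (0.00%) each, and 0 members had an unadjusted p under 0.05. The difference between the tryptophan and niacin coefficients of both days was called for 26 genes (0.148%), 9 of them pancreatic acinar genes, and for 0 members, with Plvap alone at an unadjusted p under 0.05 (1.44, SE 0.42, adjusted p 0.521). The corresponding difference for methionine was called for 0 genes (0.00%) and had 0 members at an unadjusted p under 0.05. The diet effects on the members were therefore not resolved by the fit.

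Other genes of all endothelial cells were read from a list of 29, of which 25 had a mean of at least 1 FPKM. Of these 25, 20 were highest in 3K, 4 in 3KR and 1 in C, and 16 were lowest in 1K. Their geometric mean level, with 0.5 FPKM added to each, was 3.09 FPKM in 1K, 7.65 FPKM in 3K and 3.64 to 5.24 FPKM in the other 7. Between 3K and R, 11.6% of all genes were higher and 13.4% lower. Of 27 measured list genes, 11 were past 2-fold, all of them higher in 3K, and the median was 0.70. Among them were Gpihbp1, which holds lipoprotein lipase on capillaries (15.1 against 2.44 FPKM), S1pr1, a sphingolipid receptor (18.2 against 5.81), and Cldn5, a tight junction claudin (7.39 against 2.34). In 2K against R, 1 of 25 was higher (Gpihbp1, 13.8 FPKM) and 0 lower, with a median of 0.25, beside 14.7% and 14.1% of all genes. In 1K against R, 3 of 24 were lower and 0 higher, with a median of -0.46, beside 8.63% and 7.17%. The 2K count of higher genes was below its share, and the 1K count of lower genes was near its share. Without 2K and 3K, 17 of the 25 were lowest in 1K and 12 were highest in 3KR. Counts of genes highest or lowest in a library were not made over all genes.

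Set against the geometric mean of that list, 7 of the 8 measured members were still above their R level in 3K, most of them by less than 2-fold. The ratio of Pecam1 to the list was 1.99 in 1K, 3.02 in R and 4.31 in 3K, and that of Plvap was 4.59 in R, 7.65 in 2K and 8.23 in 3K. Kdr followed the list most closely, with ratios of 0.862 to 1.37 over the 9 libraries. In 3K against R, the difference relative to the list was 1.28 for Lyve1, 0.83 for Plvap, 0.71 for Flt4, 0.60 for Cdh5, 0.50 for Pecam1, 0.32 for Vwf, 0.03 for Kdr and -1.01 for Prox1, so 2 members were past 2-fold. Relative to the list, Cdh5 (1.50) and Lyve1 (1.16) remained at least 2-fold higher in 3KR than in RR, and Vwf at least 2-fold lower in 1K than in R (-1.36). Such a ratio shows levels unequal to the list, and the share of other cells that express Prox1, Lyve1 or Vwf in it was not tested.

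**Figure D3:**
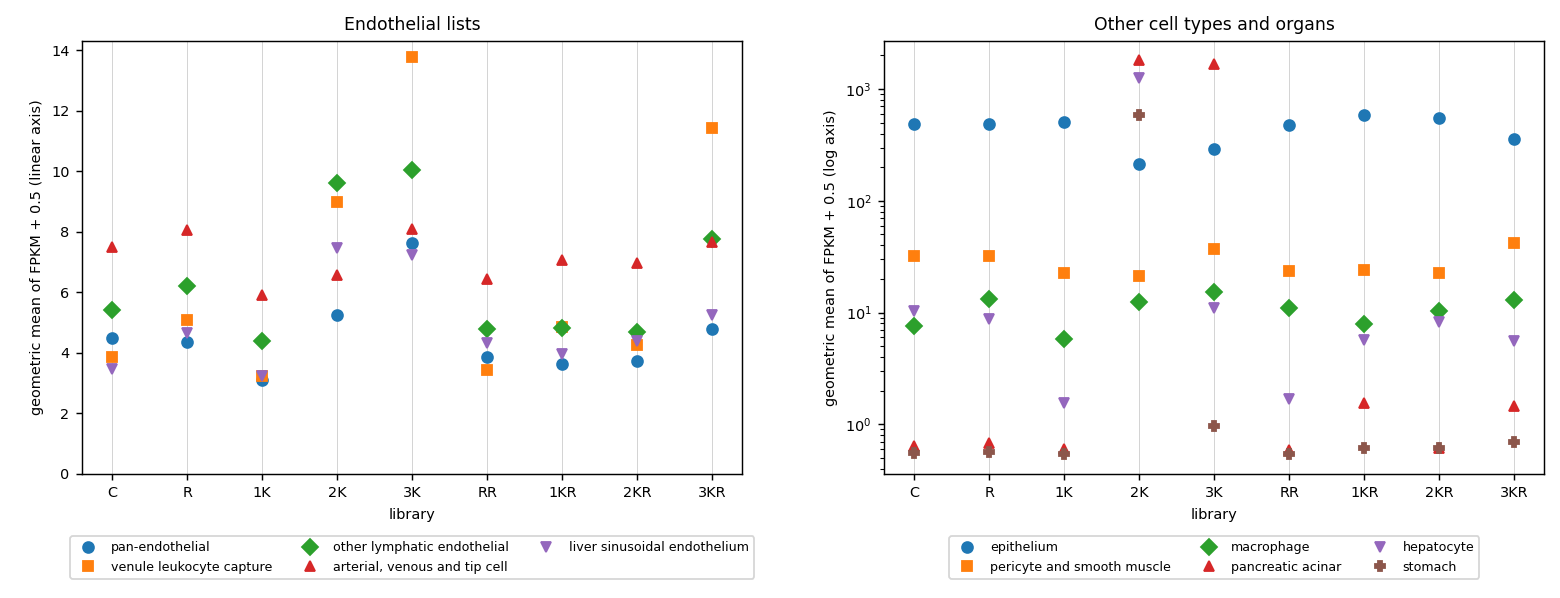
Geometric mean of FPKM + 0.5 of each gene list in each library, for endothelial lists on a linear axis (left) and for other cell types and organs on a log axis (right). The pan-endothelial mean was highest in 3K (7.65), and the pancreatic acinar list was high in 2K and 3K, the hepatocyte and stomach lists in 2K.

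Genes with which venules capture leukocytes, and the cytokine receptor genes Il1r1 and Csf2rb on the same list, were read as partners of Sele. Of 9 measured, 4 were at least 2-fold higher in 2K than in R, 6 in 3K than in R and 7 in 3KR than in RR, with 0 lower in each. The shares of all genes higher in these comparisons were 14.7%, 11.6% and 11.4%. Il1r1 was among the higher genes in each comparison, at 39.4 FPKM in 2K and 13.5 in 3K against 4.77 in R. In 3KR it was at 11.2 FPKM against 4.13 in RR, where Csf2rb (41.5 against 6.68) was also counted. Selp, encoding P-selectin, was at 1.47 FPKM in C, 2.24 in R, 1.64 in 1K, 7.58 in 2K, 17.0 in 3K, 1.65 in RR, 2.30 in 1KR, 2.28 in 2KR and 8.53 in 3KR. Like Sele, it was high in 2K, 3K and 3KR, the range of the other 6 lying below all 3. How many of all genes have these 3 as their highest libraries was not counted, for Selp or for the genes below. Icam1, a ligand of leukocyte integrins, had the same 3 highest libraries (11.98, 15.4 and 7.89 FPKM, against 3.19 to 4.99), as did Ackr1, a chemokine receptor of venules (4.73, 9.03 and 3.68, against 1.20 to 2.03). Madcam1, the gut homing ligand, was highest in 3KR (8.06) and 3K (6.35) but not in 2K (1.94).

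Genes of leukocytes and chemokine receptors that meet these ligands were read as well. Of 9 measured, 5 were at least 2-fold higher in 3KR than in RR and 0 lower, beside 11.4% and 9.73% of all genes. Selplg, which encodes the ligand PSGL-1 for selectins, was at 20.1 against 7.14 FPKM. In 3K, where Sele and Selp were highest, Selplg was at 3.38 FPKM against 7.32 in R. The summed level of 5 markers common to leukocytes was 238.7 FPKM in 3KR against 59.3 to 137.5 FPKM in the other 8 libraries, and its part in the 3KR values was not tested. Ccr7, encoding the receptor for Ccl21a, was at 3.82 FPKM in 3K, 2.48 in 3KR and 2.26 in 2K and between 0.323 and 1.51 in the other 6, an order unlike that of the Ccl21a scaffold row and the same 3 highest libraries as Selp. Ackr3, a chemokine scavenger receptor, also had these 3 highest (11.1, 4.04 and 8.87 FPKM in 3K, 3KR and 2K, against 2.24 to 3.37).

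Of the other lymphatic genes, 4 of 12 measured were at least 2-fold higher in 3K than in R (median 0.61), 2 of 11 in 2K than in R (median -0.17) and 3 of 11 in 3KR than in RR (median 0.53), with 0 lower in each. The shares of all genes higher were 11.6%, 14.7% and 11.4% in the same order, so the 2K count was near its share. Reln, a matrix glycoprotein, was at 17.0 FPKM in 3K against 5.09 in R, and Mmrn1, a multimerin of lymphatic endothelium, at 12.7 against 5.85. In 2K, Mmrn1 was at 4.67 FPKM and Pdpn (podoplanin) at 7.60 against 6.12 in R, so the high Prox1 of 2K was not accompanied by a 2-fold higher level of either. The 2 list genes that were higher in 2K were Cp, a plasma protein made mainly by liver (686 against 11.7 FPKM), and Stab2, a scavenger receptor of liver sinusoids and lymphatic vessels (4.58 against 0.794). Cp was also among those higher in 3K (53.4 against 11.7 FPKM in R). Those higher in 3KR than in RR were Cp (25.8 against 7.26), Thy1 (25.2 against 7.38) and Pdpn (11.9 against 4.73). The part of other cells in these values was not tested.

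Lyve1 is shared with macrophages and with liver sinusoidal endothelium, and some markers of both were higher in the same libraries. Cd163, a scavenger receptor of resident macrophages, was at 6.77 FPKM in 2K, 11.0 in 3K and 5.60 in 3KR, against 0.683 to 2.14 in the other 6. Mrc1, the mannose receptor of macrophages and sinusoids, was at 13.03, 13.7 and 8.46 FPKM in those libraries, against 2.21 to 6.35. The number of all genes that separate these libraries in the same way was not counted. Of all 10 macrophage markers, 1 was at least 2-fold higher and 2 lower in 2K against R (median -0.21), 2 and 1 in 3K against R (median 0.11) and 3 and 1 in 3KR against RR (median -0.01). Their sums were 257.9, 298.4 and 279.2 FPKM, within the range of 102.5 to 404.2 FPKM of the other 6, and Timd4, a marker of long-lived gut macrophages, was at 0.535, 1.60 and 1.75 FPKM. Clec4g, a lectin of liver sinusoids, was at 2.95 FPKM in 2K and at most 0.310 elsewhere. Of liver sinusoidal genes, 5 of 12 measured in 2K against R were 2-fold higher (1 lower), 4 of 10 in 3K against R (1 lower) and 4 of 11 in 3KR against RR (2 lower). Of all genes, 14.7% were higher and 14.1% lower in 2K against R, and 11.6% and 13.4% in 3K against R. In 3KR against RR these shares were 11.4% and 9.73%. What share of the Lyve1 difference came from each cell type was not tested.

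**Figure D4:**
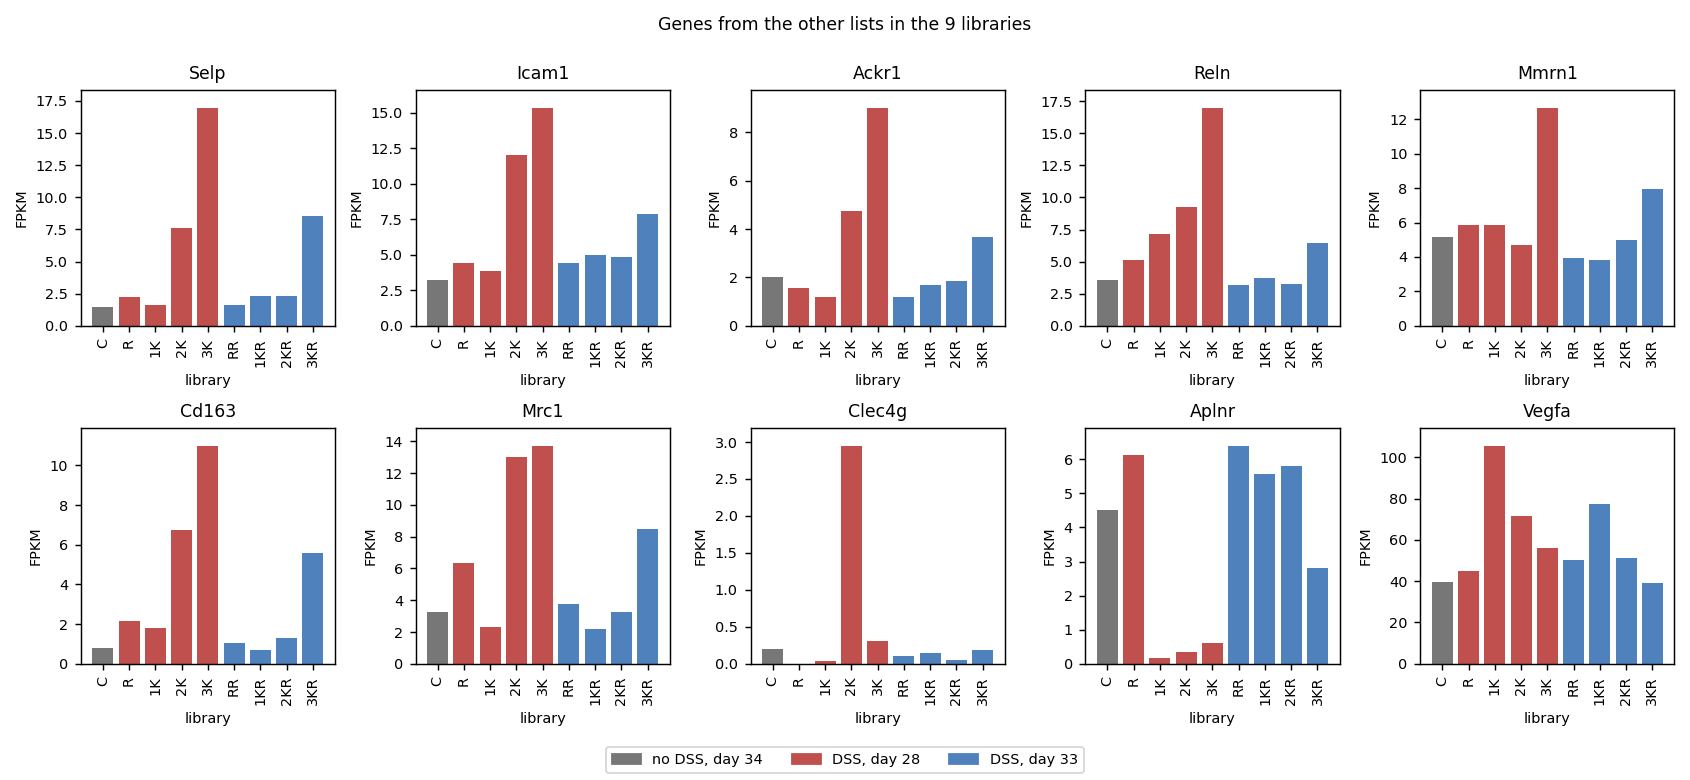
Level in each of the 9 libraries, in FPKM on a linear axis from 0 that differs between panels, of 10 genes from the other lists; each bar is 1 library, grey without DSS, red at day 28 and blue at day 33. Selp, Icam1, Ackr1, Cd163 and Mrc1 had their 3 highest levels in 2K, 3K and 3KR, and Aplnr its 3 lowest in 1K, 2K and 3K.

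The VEGF ligands of Kdr and Flt4 had other orders of libraries than these receptors. Vegfa, the main ligand of Kdr, was at 39.8 FPKM in C, 45.1 in R, 105.6 in 1K, 71.7 in 2K, 56.1 in 3K, 50.2 in RR, 77.2 in 1KR, 51.0 in 2KR and 39.1 in 3KR, so it was highest in 1K, where Kdr was lowest. Vegfc, a ligand of Flt4, was at 4.17 FPKM in 1K, 1.63 in 3K and 1.09 in 2K against 2.31 in R, and Vegfd, the other, was at 1.24, 2.64 and 2.204 against 2.72. Of the list of ligands and their helpers, 2 of 12 measured were at least 2-fold higher in 3K than in R and 0 lower, with Adm, the vasodilator adrenomedullin, at 7.85 against 1.86 FPKM. Of all genes, 11.6% were higher and 13.4% lower, so the count of higher genes was near that share. Ccbe1, which helps to activate Vegfc, was at 4.36 FPKM in 3K and 4.08 in 2K against 2.02 in R.

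Among genes of arteries, veins and sprouting tips, Aplnr, the apelin receptor of venous and sprouting endothelium, had an order of libraries unlike that of any member. It was at 4.51 FPKM in C, 6.12 in R, 0.176 in 1K, 0.348 in 2K, 0.603 in 3K, 6.40 in RR, 5.56 in 1KR, 5.80 in 2KR and 2.81 in 3KR. The 3 libraries on deficient diets were lower than the other 6 without overlap, and 1KR and 2KR were near R and RR. How many of all genes separate these libraries in the same way was not counted. Gja5, an arterial connexin, was at 0.271, 0.310 and 0.130 FPKM in 1K, 2K and 3K, against 0.456 to 1.41 in the other 6. It was above 1 FPKM only in R. Gja4, another connexin on the list, was at 0.609 FPKM in 1K but at 3.34 in 2K and 3.16 in 3K, against 1.09 in R. Pgf was also higher in 2K (1.27 FPKM) and 3K (1.48) than in R (0.365). Of the whole list, 2 of 14 measured were higher and 2 lower by 2-fold in 2K against R, 2 and 2 of 15 in 3K against R, and 0 and 3 of 13 in 1K against R. Of all genes, 14.7% were higher and 14.1% lower in 2K against R, and 11.6% and 13.4% in 3K against R. In 1K against R these shares were 7.17% and 8.63%. The list counts in 2K and 3K were near the shares over all genes.

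The genes whose pattern over the 9 libraries was most like that of each member were found by the mean absolute difference of centred log2 values among the 17622 genes whose mean reached 1 FPKM. For Pecam1 they were Nes (0.0975), Pcdhgc3 and the endothelial claudin Cldn5. For Cdh5 the nearest was Col4a1 (0.192), a collagen of basement membranes, at 159.4 FPKM in 3K, 121.4 in 3KR and 29.4 in 1K, followed by Olfml2b and Pakap. Kdr was nearest to Dkk3 (0.0702), Plvap to Celf4 (0.116) and then to the endothelial gene Rasip1 (0.126), Vwf to Tead2 (0.147) and Flt4 to Las1l (0.0743). Prox1 was nearest to Mtss1 (0.160), which was at 84.2 FPKM in 2K and 14.3 to 28.0 in the other 8, and Lyve1 to Gpx3 (0.115), at 186.3 FPKM in 3K, 121.7 in 2K and 93.4 in 3KR. For Ccl21a the smallest value was 0.619, for the microRNA gene Mir1927, which was at 11.8 FPKM in 1K, 11.2 in 2K and 8.67 in 1KR and listed at 0 in the other 6.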

How the data were processed

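The intestinal tract of mice was homogenised in ISOGEN, ribosomal RNA was removed and stranded total RNA libraries were made, per the labels' protocols. The submitters' processing notes name HISAT2, Cuffdiff 2.2.1 and GRCm38; the sources used here do not give the annotation or strand setting. The deposited table gives FPKM per gene, per the file headers, with no counts and 1 library per condition in 9 columns. Coordinates came from GENCODE M21, in which 241 rows were not found, and promoters from RefSeq (GRCm38.p6), where 5 of the 10 members matched.

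Values were used as deposited. A total of 12 comparisons of 2 libraries were described by log2(FPKM + 0.5) differences, with a floor of 1 FPKM in either library and a 2-fold limit. The linear model was fitted with limma 3.58.1 in R 4.3.3, with a mean-variance trend, to genes whose mean over the 8 DSS libraries reached 1 FPKM, with Benjamini-Hochberg adjustment over all genes fitted; any true interaction of the diets enters its error. It was tested on simulated data. The members and the 19 other gene lists were chosen with earlier results of these data known. The genes named were all members, and from each list the 3 of highest mean and up to 3 of largest difference per comparison; Gp6, Gp9, Tubb1, Ppbp, Gm29682, Gtpbp3, Prox1os, Gm28172 and the Ccl21b and Ccl21c rows were named for the check they serve. The 3 genes of most like pattern were taken per member. Alternatives were pseudocounts of 1 and 0.1, no floor or one of 5 FPKM, scaling by median of ratios (7809 genes), other filters, no trend, diet effects common to both days, and leaving out each library.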

Additional observations from a re-analysis of the deposited data

How the results depend on the processing

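Counts of members at least 2-fold apart kept within 1.5 times of the value given above except as follows. With a pseudocount of 0.1, 1 member was counted in RR against C. With a pseudocount of 1, the count was 0 in RR against R, 1 in 1KR against 1K and 4 in 3KR against 3K. With a floor of 5 FPKM it was 1 in 1K against R, 0 in RR against R and 1 in 1KR against 1K. Relative to the pan-endothelial list, an alternative chosen after seeing the data, it was 2 in 3K against R, 0 in RR against R, 3 in 2KR against 2K and 1 in 3KR against 3K. With no floor, the percentage of genes at least 2-fold apart was 4.90 (R against C), 7.51 (RR against C), 10.4 (1K against R), 18.7 (2K against R), 16.2 (3K against R), 4.21 (2KR against RR), 13.7 (3KR against RR), 7.03 (RR against R), 9.31 (1KR against 1K), 20.5 (2KR against 2K) and 16.4 (3KR against 3K), since genes of low values enter, and the median of the stomach list in 3KR against 3K was 0.14, above 0. In the limma fit, genes called for tryptophan and niacin deficiency at day 28 were 20 with a mean of at least 5 FPKM, 67 without the trend and 1 with effects common to both days (also 1 at day 33); for the difference of that effect between days they were 17 with no filter and 17 with a mean of at least 5 FPKM. Leaving out each of the 8 libraries in turn gave a range of 0 to 0 for both, with 1 residual degree of freedom. Where no construction of the alternative shows it, the cause was not tested. No paired analysis was possible because each condition has 1 library. Median-of-ratios scaling moved the median over all genes by over 0.1 in 1K against R (given above) and 3KR against RR (from 0.03 to 0.14), and by less in the other 10 comparisons. Depth limits Sele and Ccl21a, whose levels in most libraries rest on an estimated 0 to 7.38 fragments.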

Other observations

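Genes of pericytes and smooth muscle, and genes of red cells, differed between the same libraries. In bulk gut the smooth muscle genes also mark the muscle of the gut wall, so they do not single out cells around vessels. Of 12 pericyte and smooth muscle genes, 6 were at least 2-fold higher in 3KR than in RR and 0 lower (median 1.06), beside 11.4% and 9.73% of all genes. The enteric smooth muscle actin Actg2 was at 469.1 against 129.0 FPKM. Between 3K and R, 2 of the 12 were past 2-fold, Kcnj8 (15.2 against 3.64 FPKM) and Abcc9 (18.2 against 6.87), which encode the potassium channel of pericytes, while the median was -0.02. Of all genes, 11.6% were higher and 13.4% lower in 3K. In 2K the same channel genes were at 9.75 and 11.9 FPKM. In that library 5 other genes of the list were at least 2-fold lower than in R, beside 14.1% of all genes, with Acta2 at 98.7 against 241.8 FPKM.

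Of 8 fibroblast genes, 7 were at least 2-fold lower in 1K than in R and 0 higher (median -2.50), beside 8.63% and 7.17% of all genes. The collagen gene Col1a2 was at 9.07 against 54.6 FPKM. The same 8 genes summed to 119.8 FPKM in 1K and to 268.5 to 614.2 FPKM in the other 8 libraries. Red cell genes summed to 113.1 FPKM in 3K, 5.60 in 1K and 16.6 to 40.7 in the other 7, so 3K and 1K were at the same ends as for Pecam1, Kdr, Plvap and Vwf. Hbb-bs, a beta globin gene, was at 72.6 FPKM in 3K, 2.70 in 1K and 10.8 in R. How much blood each sample held was not tested.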
